A study of Mus musculus with 8 samples.

Results

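The lysyl oxidase family was followed in RNA sequencing of tumor stroma from Bmal1+/+ and Bmal1-/- mice. The family comprised 5 of the 55487 genes in the count table, namely Lox, Loxl1, Loxl2, Loxl3 and Loxl4, taken by gene symbol. Of these, 4 were among the 14353 genes with enough counts to be tested, and Lox was below that limit. The members were chosen from fold changes of the same comparison that were known from an earlier analysis, so their differences between labels are given as a description and carry no test.

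The samples were labelled as the stromal vascular fraction of tumors made from MC38, a mouse colon cancer cell line labelled with GFP. The tumor cells were implanted subcutaneously, and the GFP-labelled cells were removed by sorting. There were 4 samples from Bmal1+/+ hosts and 4 from Bmal1-/- hosts, which descended from Bmal1+/- breeders, with 1 library from each sample. The deletion was carried by the host and not by the implanted cells, the line was the same in both groups, and strain, age and sex of these hosts are not given in the sources used here. Bmal1 codes for a core activator of the circadian clock, and the comparison asked which stromal transcripts differ in hosts without it. The labels do not say whether the samples of a group came from separate mice or tumors, so the spread between libraries may be in part technical.

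Lysyl oxidases are secreted copper-dependent amine oxidases. They oxidize lysines of collagen and elastin to aldehydes, which then form the cross-links that stiffen the extracellular matrix. All members share a catalytic domain near the carboxyl end with a cofactor made from a lysine and a tyrosine of the enzyme itself, whereas Lox and Loxl1 start with a propeptide and Loxl2, Loxl3 and Loxl4 with scavenger receptor domains. In tumors they are known from fibroblasts and hypoxic cells, and their activity is linked to stiff stroma and invasion.

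The catalytic end is shown first, because the reads of related genes can only be told apart where the sequences differ. The following 45 coding bases code for the 15 residues in which Loxl4 resembles the other members most. They were chosen by identical residues and not by identical bases, and they hold the codon of the lysine that enters the cofactor. They were taken 5′ to 3′ from the mouse GENCODE transcripts of build GRCm38, and capitals mark bases that differ from Loxl4.
Loxl1: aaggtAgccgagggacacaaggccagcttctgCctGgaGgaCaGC
Loxl2: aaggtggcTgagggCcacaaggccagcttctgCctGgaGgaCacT
Loxl3: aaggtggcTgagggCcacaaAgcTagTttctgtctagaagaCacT
Loxl4: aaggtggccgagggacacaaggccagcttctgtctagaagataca
These are bases 1510 to 1554 of the Loxl1 coding sequence, 1945 to 1989 of Loxl2, 1885 to 1929 of Loxl3 and 1900 to 1944 of Loxl4. Loxl1, Loxl2 and Loxl3 each shared 38 of the 45 bases with Loxl4, and Lox shared 34. Outside such stretches the transcripts diverged. Only the transcript of each member with the longest coding sequence was searched for shared runs. Between these, the longest run of identical bases was 32 bases, between Lox and Loxl1. No run that the Loxl4 transcript shared with that of another member was longer than 26 bases, and other annotated transcripts were not compared.

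Loxl4 had the largest difference of the family, and its upstream sequence is therefore shown. The 250 bases before its RefSeq start site were read from RefSeq at chr19:42612807-42613056 of GRCm38.p6, on the minus strand, and the other members had no matching entry. Capitals mark GGGCGG, the core of a GC box, and CACGC, which is GCGTG on the other strand.
Loxl4: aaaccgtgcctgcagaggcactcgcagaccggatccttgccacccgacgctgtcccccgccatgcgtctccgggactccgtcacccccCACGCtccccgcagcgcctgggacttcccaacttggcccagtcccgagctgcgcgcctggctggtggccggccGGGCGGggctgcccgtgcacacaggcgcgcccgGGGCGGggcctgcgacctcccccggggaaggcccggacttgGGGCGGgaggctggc
The window was rich in G and C, at 76.0% against a median of 52.4% over 32851 promoter windows of the same length. Both strands were searched for 7 motifs, with positions counted back from the start site. GGGCGG occurred 3 times, beginning at -89, -56 and -15, and 32.7% of all windows held it. GCGTG, part of the hypoxia response element, occurred 1 time at -162, and 28.2% of windows held it. CACGTG, the E-box bound by the BMAL1 and CLOCK pair, was not in this window and was in 6.0% of all windows. The variant E-box CACGTT was in 3.8% of windows, the TATA box TATAAA in 12.4%, the nuclear receptor motif AGGTCA in 14.0% and ACGTG, which overlaps CACGTG, in 16.6%. None of these 4 was in the Loxl4 window.

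The labels were checked before the family was described. Library totals were between 14783346 and 18449143 counts in Bmal1+/+ libraries and between 14054825 and 15624815 in the others. Bmal1 (Arntl) averaged 1.55 ± 0.814 CPM in Bmal1+/+ libraries but 32.6 ± 2.00 CPM in those labelled Bmal1-/- (mean ± SD of 4 libraries, here and below), where CPM is the count scaled to library size after TMM normalization, and Dbp, a target of BMAL1, had 94.8 ± 20.7 and 4.74 ± 1.53 CPM. The RNA of the targeted gene was thus low in Bmal1+/+ libraries and high under the label of its deletion, while that of its target Dbp was lower there. Counts per gene do not show whether the transcript was intact. The genotypes were not tested, and the names of both groups below are those of the labels only. Xist, expressed from the inactive X chromosome, had 942 ± 111 CPM in Bmal1+/+ libraries and 0.343 ± 0.276 CPM in those labelled Bmal1-/-, while the Y-linked gene Ddx3y had 0 counts in the former and 59.4 ± 1.40 CPM in the latter, so sex and genotype label cannot be told apart. The 10 hepatocyte markers summed to 105664 to 118964 CPM in Bmal1+/+ libraries and 64397 to 73996 CPM in the others, far above the 10 fibroblast markers at 145 to 229 and 105 to 111 CPM, and Fap, which defines tumor fibroblasts, had at most 7 counts. The intestinal factor Cdx2 had 0 counts in all 8 libraries. These levels go against the labelled tissue, and the samples are described by their labels with that limit. Library 4 labelled Bmal1-/- stood apart in Saa1, an acute phase gene of the liver, with 7751 CPM against 10.9 to 17.7 CPM in the other libraries of that label. It stood apart over the tested genes too, with a chi-square per degree of freedom of 141 to 163 against those libraries. Among themselves those libraries had 19.6 to 43.7. Every direction below is between labels, and the part of sex or of hepatocyte RNA in it was not tested.

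Loxl4, which codes for a lysyl oxidase with scavenger receptor domains that acts on collagen, was the member with the largest difference. It lies on chromosome 19 of GRCm38 from 42593982 to 42612813 (ENSMUSG00000025185), where no other annotated gene overlaps it. In Bmal1+/+ libraries 1 to 4 it had 1.14, 1.66, 0.806 and 0.612 CPM, from 11 to 26 counts. In the libraries labelled Bmal1-/- it had 85.6, 102, 69.0 and 85.1 CPM, from 970 to 1478 counts. All 4 libraries labelled Bmal1-/- were high and all 4 Bmal1+/+ libraries were low, with a wide gap between them. The group means were 85.5 ± 13.6 and 1.06 ± 0.461 CPM (SD, n = 4 each), and the log2 fold change was 6.34 (standard error 0.27), an 80.8-fold higher level. Only 27 of the 14353 genes tested had a larger log2 fold change toward the label Bmal1-/-. Without library 4 of that label, which stood apart in Saa1, the log2 fold change was again 6.34.

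**Figure D1:**
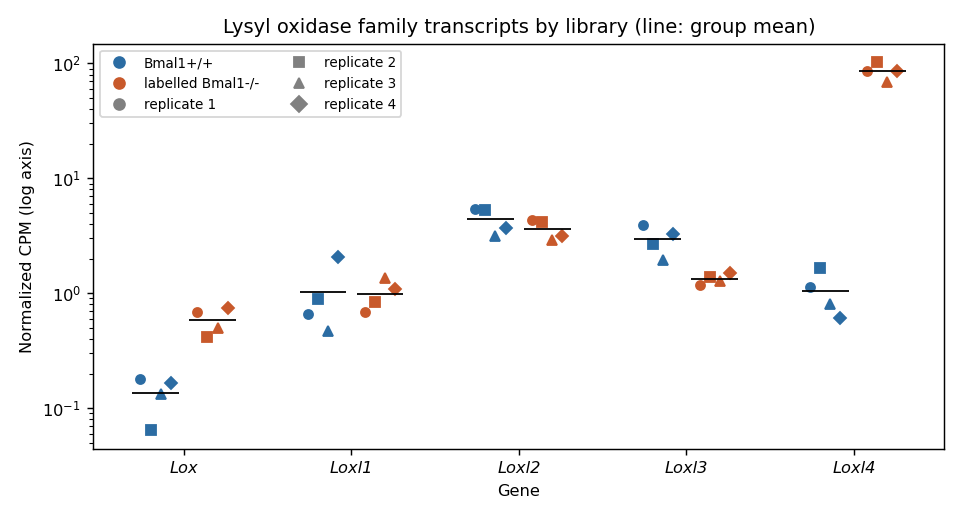
Normalized CPM on a log axis for the 5 members, with blue symbols for the 4 Bmal1+/+ libraries, orange symbols for the 4 libraries labelled Bmal1-/-, symbol shapes for replicates and a line at each group mean. Loxl4 moves from 0.612 to 1.66 CPM up to 69.0 to 102 CPM, Loxl3 sits lower and Lox higher under the label Bmal1-/-, and the groups overlap for Loxl1 and Loxl2.

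Genes near Loxl4 were examined after its values had been seen. R3hcc1l, 1639 bases away, had 14.2 ± 1.24 and 16.1 ± 1.63 CPM in Bmal1+/+ libraries and those labelled Bmal1-/-, a difference of 0.18 in log2 with a standard error of 0.12 (adjusted p = 0.28 by the quasi-likelihood test of edgeR, as for all adjusted p below unless another test is named). Pyroxd2, on the other side at 113045 bases, rose from 22.5 ± 1.18 to 53.7 ± 11.5 CPM, or 1.25 in log2 (standard error 0.15, adjusted p = 0.00031). Hps1, at 142292 bases, rose by 0.53 (standard error 0.14, adjusted p = 0.019). The neighbours Golga7b, Crtac1 and Hpse2 had at most 2 counts in any library and were not tested. The fold changes of the 3 neighbours tested were far below that of Loxl4.

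Loxl3, another member with scavenger receptor domains, differed in the other direction. It lies on chromosome 6 from 83034173 to 83052562 (ENSMUSG00000000693). Its CPM in Bmal1+/+ libraries 1 to 4 were 3.91, 2.69, 1.95 and 3.29. In the libraries labelled Bmal1-/- they were 1.19, 1.39, 1.28 and 1.49. The lowest Bmal1+/+ library was above the highest library labelled Bmal1-/-. The libraries of the latter label lay close together, on only 18 to 22 counts. The means were 2.96 ± 0.839 and 1.34 ± 0.132 CPM, with a log2 fold change of -1.15 (standard error 0.25), or 2.21-fold lower, on 18 to 65 counts. The gene overlaps Htra2, a mitochondrial protease gene on the opposite strand, and because the sources used here do not give the strand setting of the counting, reads of the pair cannot be told apart.

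Loxl2, which cross-links collagen IV among other substrates, differed little. It lies on chromosome 14 from 69609068 to 69695834 (ENSMUSG00000034205) and overlaps 2 unnamed transcripts on the opposite strand and a microRNA gene. Bmal1+/+ libraries 1 to 4 had 5.42, 5.25, 3.16 and 3.73 CPM. The libraries labelled Bmal1-/- had 4.31, 4.16, 2.92 and 3.12 CPM. The groups overlapped, since libraries 1 and 2 labelled Bmal1-/- were above Bmal1+/+ libraries 3 and 4. The means were 4.39 ± 1.12 and 3.63 ± 0.708 CPM and the log2 fold change was -0.27 (standard error 0.23).

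Loxl1, which cross-links elastin, had no clear direction. It lies on chromosome 9 from 58287738 to 58313186 (ENSMUSG00000032334). Bmal1+/+ libraries 1 to 4 had 0.662, 0.896, 0.470 and 2.06 CPM, and the last of these held 37 counts where the others held 7 to 14. The libraries labelled Bmal1-/- had 0.687, 0.831, 1.35 and 1.09 CPM. The Bmal1+/+ libraries spanned the whole range of the others, and library 4 was the highest of all 8. The means were 1.02 ± 0.714 and 0.989 ± 0.293 CPM, with a log2 fold change of -0.07 (standard error 0.46). The sign was not stable. Without Bmal1+/+ library 4 the log2 fold change was 0.53, without library 1 labelled Bmal1-/- it was 0.08, and without library 2 of that label it was 0.00.

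Lox, the founding member of the family, was near the limit of detection. It lies on chromosome 18 from 52516067 to 52529867 (ENSMUSG00000024529), with an antisense transcript overlapping it. Bmal1+/+ libraries 1 to 4 held 3, 1, 2 and 3 counts, or 0.181, 0.0640, 0.134 and 0.167 CPM. The libraries labelled Bmal1-/- held 11, 6, 7 and 11 counts, or 0.687, 0.416, 0.498 and 0.746 CPM. All 4 Bmal1+/+ libraries were at or below 3 counts, the floor taken for detection here, which was worth 0.167 to 0.213 CPM, and all libraries labelled Bmal1-/- were above it. The means were 0.137 ± 0.0521 and 0.587 ± 0.156 CPM. The ratio of summed counts, 35 against 9 and scaled to library size, was 4.27, with a 95% interval from 2.01 to 10.1 that covers counting error only. Lox did not pass the filter on low counts and had no fitted fold change.

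Set against all genes, 2 of the 4 members tested passed an adjusted p of 0.05, 1 lower and 1 higher, where 31.1% of the 14353 genes did, 16.2% lower and 14.9% higher. Groups did not overlap for 2 of these 4 members, and for 33.4% of all genes. As these values come from the comparison from which the members were chosen, nothing is read from the counts. In bulk RNA, fewer cells of a type and less RNA per cell cannot be told apart.

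The members were then compared with each other per transcript length, using the deposited FPKM (the fragment count scaled to a length per gene and to mapped fragments). The lengths implied by these values were 8593 bases for Lox, 3297 for Loxl1, 6064 for Loxl2, 5534 for Loxl3 and 5361 for Loxl4. The annotated transcripts with the longest coding sequence have 4741, 3297, 5316, 4098 and 2617 bases, so levels between members depend on the length taken. The summed FPKM of the family was between 1.19 and 2.05 in Bmal1+/+ libraries and between 14.1 and 20.9 in those labelled Bmal1-/-. Loxl4 made up 5.81% to 16.0% of the sum in the former and 91.6% to 93.9% in the latter. Per length of the transcripts named above, an alternative added after seeing the data, it made up 9.76% to 24.8% and 95.0% to 96.4%. Loxl2 had the largest share in 3 of the 4 Bmal1+/+ libraries, with 31.3% to 44.6% over all 4, and it had 3.01% to 4.14% under the label Bmal1-/-. Loxl3 held 25.0% to 34.7% and 1.23% to 1.65%, Loxl1 9.87% to 31.8% and 1.21% to 2.92%, and Lox at most 1.32% of the family sum. Without Loxl4, the sum of the other 4 genes was 1.04 to 1.83 FPKM in Bmal1+/+ libraries and 1.17 to 1.27 FPKM in the others, and these overlapped. The ranges of the family sum were thus apart with Loxl4 and overlapping without it.

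**Figure D2:**
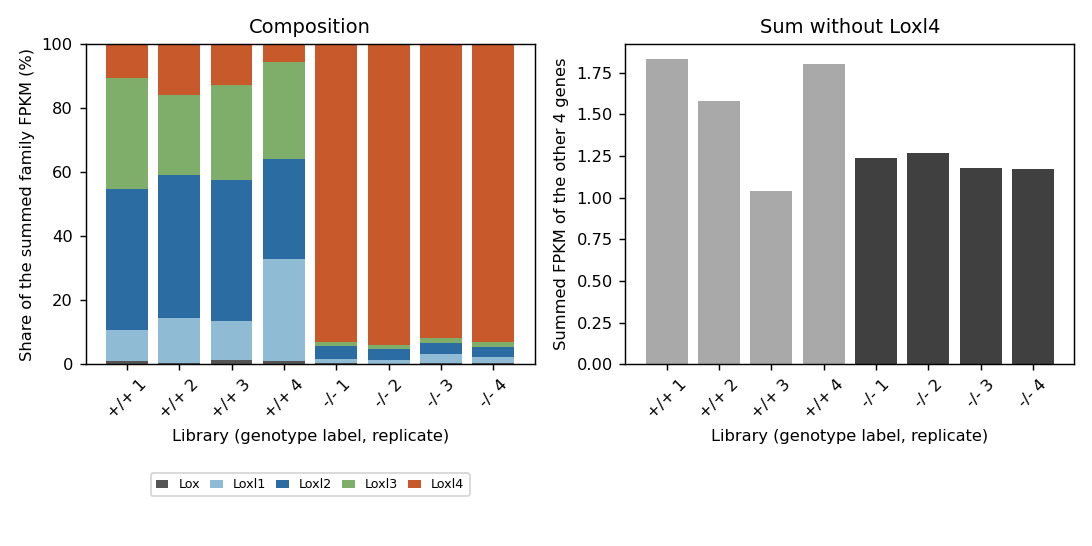
Left, the share of each member in the summed FPKM of the family, in percent, for the 4 Bmal1+/+ libraries (+/+) and the 4 libraries labelled Bmal1-/- (-/-). Right, the summed FPKM of the 4 members other than Loxl4, light grey for Bmal1+/+ and dark grey for the label Bmal1-/-, with Loxl4 taking at least 91.6% of the family sum under the latter label and at most 16.0% in Bmal1+/+ libraries and the remaining sums between 1.04 and 1.83.

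Over all 8 libraries the order of mean FPKM was Loxl4 at 8.14, Loxl2 at 0.660, Loxl3 at 0.386, Loxl1 at 0.303 and Lox at 0.0422. Neighbours in this order were compared within libraries by an exact sign-flip permutation test of log2(FPKM + 0.1), two-sided and adjusted over the 4 pairs, for which 0.00781 is the smallest unadjusted p that 8 libraries can give. Loxl2 exceeded Loxl3 in 8 of 8 libraries, by a mean difference of 0.70 ± 0.44 (SD) on that scale (exact adjusted p = 0.0156). Per length of the annotated transcripts, Loxl2 was higher than Loxl3 in 7 of 8 libraries, by 0.52 ± 0.46 (exact adjusted p = 0.0312). Loxl1 exceeded Lox in 8 of 8 libraries, by 1.46 ± 0.55 (exact adjusted p = 0.0156). Lox had at most 0.0850 FPKM, below the 0.1 added, so the size of this difference depends on the value added. With 0.01 added instead it was 2.70 ± 1.05 (exact adjusted p = 0.0156). Loxl3 and Loxl1 did not differ beyond their spread, with Loxl3 higher in 4 of 8 libraries and a difference of 0.26 ± 0.67 (exact adjusted p = 0.336), but per length of the annotated transcripts Loxl3 was higher in 7 of 8 libraries, by 0.61 ± 0.69 (exact adjusted p = 0.0312). In the deposited FPKM, Loxl4 and Loxl2 did not differ beyond their spread either, at 1.52 ± 3.22 (exact adjusted p = 0.281).

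This last spread followed the labels. Loxl4 was below Loxl2 in all 4 Bmal1+/+ libraries, by -1.48 ± 0.25 on the log2 scale, and above it in all 4 libraries labelled Bmal1-/-, by 4.53 ± 0.17. Loxl3 was above Loxl1 in 3 of 4 Bmal1+/+ libraries and in 1 of 4 of the others, with mean differences of 0.73 ± 0.62 and -0.20 ± 0.30. Loxl2 was above Loxl3 under both labels, by 0.38 ± 0.28 and 1.02 ± 0.30. Loxl1 was above Lox under both, by 1.68 ± 0.66 and 1.23 ± 0.37, sizes that again depend on the value added to the FPKM. With 4 libraries the sign-flip test can give no p below 1 in 8, so none of these orders within a label could pass the threshold.

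**Figure D3:**
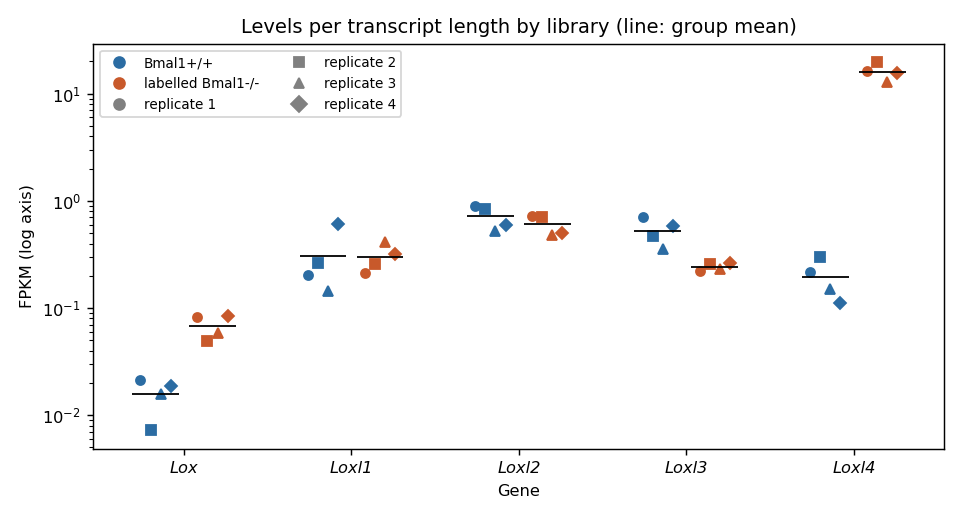
FPKM of the 5 members on a log axis, blue for Bmal1+/+ and orange for the label Bmal1-/-, with symbol shapes for replicates and a line at each group mean. In Bmal1+/+ libraries Loxl2 has the highest mean, and Loxl4, with a mean of 0.195 FPKM, lies near Loxl1 and above it in 3 of 4 libraries, whereas under the label Bmal1-/- Loxl4 has a mean of 16.1 FPKM and the other 4 members stay below 1.

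The spread among libraries also differed between members. The coefficient of variation of CPM was 69.8% for Loxl1 and 43.6% for Loxl4 in Bmal1+/+ libraries, and 29.6% and 15.9% in those labelled Bmal1-/-. For Loxl3 it was 28.3% and 9.87%, and for Loxl2 25.5% and 19.5%. For Lox, at 1 to 11 counts, it was 38.1% and 26.5%. Those of Loxl1, Loxl2 and Lox rested in part on single libraries. Without Bmal1+/+ library 4 that of Loxl1 in Bmal1+/+ libraries was 31.6%, without Bmal1+/+ library 3 that of Loxl2 was 19.4%, and without Bmal1+/+ library 2 that of Lox was 14.8%, below the 26.5% under the other label. Loxl4 and Loxl3 kept the larger spread in Bmal1+/+ libraries whichever library was left out. Loxl4 had 11 to 26 counts there and 970 to 1478 in the others, so counting error weighed more in the former. Loxl3 had 18 to 22 counts under the label Bmal1-/-, where counting error alone is expected to give more than 9.87%. Its small spread there is therefore not read as a trait of the gene. The spreads were not tested.

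For each member tested the 2 protein-coding genes with the most similar profile were found among 12254 genes. Likeness was the root mean square difference of centred log2 CPM, with a prior count of 2, over the 8 libraries. Loxl2 was closest to Rhoj, an endothelial small GTPase, at 0.130, and to the nuclear receptor gene Nr2c1 at 0.136. Loxl3 was closest to Mill2, a gene related to MHC class I, at 0.113 and to Rab6b at 0.167. Loxl1 had no gene as near, with Rpusd1 at 0.258 and Kcnab3 at 0.305. Loxl4 was farther still from its nearest genes, at 0.480 from Uty and 0.516 from Mup21. Uty is Y-linked, with 0 counts in all Bmal1+/+ libraries and 14.7 ± 1.79 CPM in the others. Mup21, a major urinary protein gene of a family higher in male liver, had 4.30 ± 1.18 and 227 ± 48.4 CPM. Uty, Mup21 and Loxl4 were all higher under the label Bmal1-/-, with fitted log2 fold changes of 10.84, 5.72 and 6.34. The steps thus differed in size, and the prior count narrows a step from 0 counts such as that of Uty. Sex splits the libraries in the same way, and its part in Loxl4 was not tested.

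Genes around the family were taken from 9 lists of 99 genes, covering substrates, processing, copper supply and upstream regulators. Of these, 81 were tested, and 35 were lower and 12 higher under the label Bmal1-/- at an adjusted p of 0.05. That is 43.2% lower and 14.8% higher, beside 16.2% and 14.9% of all genes. The median log2 fold change was -0.40, beside 0.02 over all genes. Of the 47 called, 29 kept their call under every one of 16 alternative settings that tested them, 19 lower and 10 higher. Without library 4 labelled Bmal1-/- the counts were 38 and 14. Without Bmal1+/+ library 2, or without library 3 labelled Bmal1-/-, 22 genes were called lower. Of the genes named below, Slc31a1, Cp, Pcolce, Tgm2, Tgfb3, Hif1a and Fbn1 overlap another protein-coding gene and several overlap antisense transcripts, whose reads cannot be told apart where the strand was not used.

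Collagens, the main substrates, moved both ways. Of 8 tested, 4 fell and 3 rose. Col5a2, a chain of the fibril-nucleating collagen V, fell from 3.78 ± 0.669 to 0.978 ± 0.197 CPM (log2 fold change -1.94, standard error 0.23, adjusted p = 0.0003). Col3a1, a fibrillar collagen of soft tissue, fell from 20.8 ± 5.11 to 10.5 ± 0.788 CPM (-0.98, standard error 0.17, adjusted p = 0.0023), and Col1a2 fell by 0.76 in log2 (standard error 0.17, adjusted p = 0.0085). Col1a1, the partner chain of Col1a2 in collagen I, had 4.18 ± 0.985 and 4.15 ± 1.20 CPM (adjusted p = 0.98). Another collagen V chain, Col5a3, rose from 6.62 ± 1.35 to 130 ± 24.2 CPM (4.29, standard error 0.20, adjusted p = 9.7e-07). The basement membrane chains Col4a1 and Col4a2 rose by 1.02 (standard error 0.15, adjusted p = 0.00098) and 1.59 (standard error 0.18, adjusted p = 0.0002). These genes overlap on opposite strands, so their reads may be shared.

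Elastic fibre genes were lower where they changed. Of 11 tested, 8 fell and 0 rose, with a median log2 fold change of -0.88. The calls of Emilin2 and Efemp2 were lost under several alternatives, and that of Ltbp1 without Bmal1+/+ library 2. Ltbp4, which binds latent TGF-beta and takes part in elastic fibre assembly, fell from 81.5 ± 7.38 to 32.0 ± 8.76 CPM (-1.35, standard error 0.18, adjusted p = 0.00064). Fbln2, a fibulin, fell from 2.32 ± 0.874 to 1.01 ± 0.198 CPM (-1.20, standard error 0.31, adjusted p = 0.016). The defining components did not pass the test. Eln, the elastin gene, had 1.38 ± 0.297 and 1.48 ± 0.703 CPM (adjusted p = 0.85), and Fbn1, the microfibril gene, had 3.10 ± 0.464 and 2.08 ± 0.432 CPM (adjusted p = 0.074).

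Among the genes that process or localise the proenzyme, 4 of 8 tested fell and 1 rose. The lower calls of Pcolce2 and Adamts2 were lost under several alternatives. Bmp1, the protease that cleaves the Lox propeptide and procollagen, rose from 127 ± 7.25 to 191 ± 11.6 CPM (0.59, standard error 0.10, adjusted p = 0.0017). Postn, a matrix protein that brings Bmp1 to its substrates, fell from 9.63 ± 2.72 to 2.00 ± 0.637 CPM (-2.26, standard error 0.27, adjusted p = 0.00029). Thbs1 fell by 1.70 in log2 (standard error 0.54, adjusted p = 0.039), a call that was lost under 7 of the alternatives, among them the omission of Bmal1+/+ library 2 or 4 or of library 1, 2 or 3 labelled Bmal1-/-. Pcolce, an enhancer of Bmp1, had 6.01 ± 0.957 and 4.51 ± 1.27 CPM (adjusted p = 0.2).

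Copper is the metal cofactor of the family. Of 8 copper handling genes, 3 fell and 1 rose. The lower call of Atp7b was lost with the replicate block and without Bmal1+/+ library 2. Slc31a1, the copper importer, fell from 240 ± 14.5 to 181 ± 12.0 CPM (-0.41, standard error 0.10, adjusted p = 0.013). Atp7a, the pump that loads lysyl oxidases with copper in the secretory pathway, fell from 6.77 ± 0.818 to 4.42 ± 0.826 CPM (-0.61, standard error 0.18, adjusted p = 0.026), and that call was lost without Bmal1+/+ library 1 or 3 or without library 2 or 3 labelled Bmal1-/-. Cp, the plasma copper protein ceruloplasmin made by hepatocytes, rose from 734 ± 93.7 to 1705 ± 785 CPM (1.22, standard error 0.27, adjusted p = 0.0082), and library 4 labelled Bmal1-/-, which stood apart in Saa1, had 2883 CPM where the other 3 had 1308 to 1321.

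Collagen folding and lysine hydroxylation genes act before the lysyl oxidases do. Of 14 tested, 7 fell and 1 rose. The lower calls of Crtap, P4ha2, P3h2 and P3h3 were each lost under several alternatives, while those of P4ha1 and Serpinh1 were kept. Serpinh1, the collagen chaperone HSP47, fell from 11.3 ± 1.90 to 6.25 ± 1.43 CPM (-0.86, standard error 0.19, adjusted p = 0.0088). Colgalt2, which adds galactose to hydroxylysine, fell by 1.71 (standard error 0.50, adjusted p = 0.027), and lost its call under 6 alternatives, the omission of Bmal1+/+ library 1, 2 or 4 or of library 1 or 3 labelled Bmal1-/- among them. P3h1, a prolyl hydroxylase, rose from 11.7 ± 1.46 to 21.1 ± 4.15 CPM (0.85, standard error 0.16, adjusted p = 0.0036). Plod1, a lysyl hydroxylase, had 60.1 ± 5.42 and 66.3 ± 8.54 CPM (adjusted p = 0.39). Plod2, the hydroxylase of collagen telopeptides, was not tested and had 0.984 ± 0.500 and 0.333 ± 0.175 CPM.

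Of the other cross-linking and copper amine oxidase genes, 1 of 3 tested fell. This was Tgm1, a transglutaminase, with 16.4 ± 3.07 and 3.66 ± 4.01 CPM (-2.16, standard error 0.60, adjusted p = 0.022), a call lost without Bmal1+/+ library 1 or without library 2 or 3 labelled Bmal1-/-. Without library 4 of that label, the mean there was 1.72 CPM and the difference was -3.26. Tgm2, the tissue transglutaminase, had 126 ± 25.3 and 107 ± 43.2 CPM (adjusted p = 0.5). Aoc3, a copper amine oxidase of vessels and fat, had 0 to 6 counts and was not tested.

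**Figure D4:**
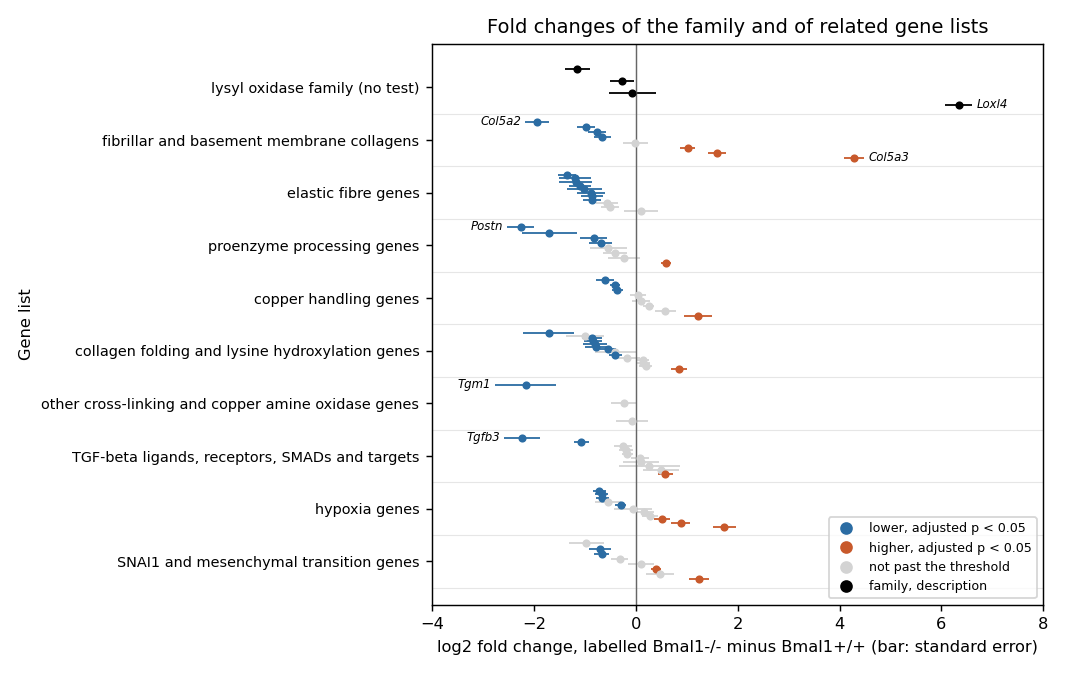
Log2 fold change between labels, with its standard error, for the 4 members that have a fitted value (black, no test) and for the tested genes of the 9 lists, blue where lower and orange where higher at an adjusted p below 0.05 and grey otherwise. Loxl4 at 6.34 lies beyond all listed genes, of which Col5a3 at 4.29 is the nearest, and 8 of 11 elastic fibre genes are blue.

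The lists of TGF-beta and hypoxia genes, which hold known inducers of the family, had genes called in both directions. The inducer genes Tgfb1, Tgfb3 and Hif1a themselves were lower under the label Bmal1-/-. Their RNA does not measure active TGF-beta or HIF1A protein. Of 10 TGF-beta genes tested, 2 ligands fell and 1 SMAD gene rose, whereas the response genes Smad7, Skil and Ccn2 did not pass the test. Tgfb3 fell from 2.78 ± 0.844 to 0.586 ± 0.210 CPM (-2.23, standard error 0.35, adjusted p = 0.0013), and Tgfb1 from 16.5 ± 2.32 to 7.86 ± 1.00 CPM (-1.07, standard error 0.15, adjusted p = 0.00066). Smad3, a mediator of TGF-beta signals, rose by 0.58 (standard error 0.15, adjusted p = 0.016). Of 11 hypoxia genes tested, 4 fell and 3 rose. The calls of Pgk1, lower, and Slc2a1, higher, were lost under several alternatives. Hif1a, whose protein induces Lox genes in hypoxia, fell from 60.3 ± 10.3 to 37.8 ± 3.15 CPM (-0.67, standard error 0.13, adjusted p = 0.0042). Its targets were split, as Bnip3 fell by 0.72 (standard error 0.13, adjusted p = 0.0028), while Ndrg1 rose from 19.5 ± 2.65 to 65.1 ± 22.7 CPM (1.74, standard error 0.22, adjusted p = 0.00044) and Ldha rose by 0.88 (standard error 0.18, adjusted p = 0.006).

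Loxl2 and Loxl3 are known as partners of SNAI1, a repressor of the epithelial cadherin gene Cdh1. Of 8 genes in this list, 2 fell and 2 rose. Snai1 had 1.49 ± 0.360 and 0.759 ± 0.305 CPM (adjusted p = 0.057). Cdh1 rose from 8.18 ± 1.16 to 19.3 ± 5.33 CPM (1.24, standard error 0.20, adjusted p = 0.0016), and Vim, the mesenchymal filament gene, fell from 26.6 ± 4.56 to 16.7 ± 2.28 CPM (-0.67, standard error 0.15, adjusted p = 0.0095). Zeb2 fell by 0.70 (standard error 0.22, adjusted p = 0.039) and Cdh2 rose by 0.39 (standard error 0.10, adjusted p = 0.018). The Zeb2 call was lost without Bmal1+/+ library 1, 3 or 4 or library 1, 2 or 3 labelled Bmal1-/-, as well as with no filter on low counts and with limma on FPKM, and the Cdh2 call without Bmal1+/+ library 1 or 2 or library 2 labelled Bmal1-/- and with the replicate block.

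Markers of the cells that could hold these transcripts moved with the labels too. Of 9 fibroblast markers tested, 6 fell and 0 rose. The 6 myofibroblast and smooth muscle markers summed to 12.3 to 22.0 CPM in Bmal1+/+ libraries and 5.09 to 8.73 CPM in the others, with 2 of 5 tested lower. Stellate cell and pericyte markers summed to 111 to 163 and 64.6 to 97.0 CPM, with 2 of 6 lower. Endothelial markers summed to 401 to 461 and 261 to 380 CPM, with 5 of 8 lower, and macrophage markers to 534 to 673 and 242 to 480 CPM, with 9 of 10 lower. None of these 4 lists had a marker that rose. Of 10 hepatocyte markers, 1 fell, namely Alb, and 2 rose. The 6 biliary and epithelial markers summed to 4.62 to 13.4 and 12.8 to 17.6 CPM, with 2 of 3 tested lower and 1 higher, and T cell and neutrophil markers to 2.95 to 7.52 and 1.92 to 31.1 CPM, with 0 of 3 called. The sums of the fibroblast, myofibroblast, stellate, endothelial and macrophage lists were lower under the label Bmal1-/- without overlap. The hepatocyte sum was lower without overlap too, but Alb was the only marker of that list called lower, while Apoa1 and Fgb rose. Alb fell from 69270 ± 3372 to 16144 ± 2599 CPM. Among the members, Loxl3 was lower and Loxl4 and Lox were higher under the label Bmal1-/- without overlap, and Lox was not tested. Of all genes tested, 33.4% did not overlap between labels, so nothing is read from this. The part of these cells in the levels of any member was not tested.

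**Figure D5:**
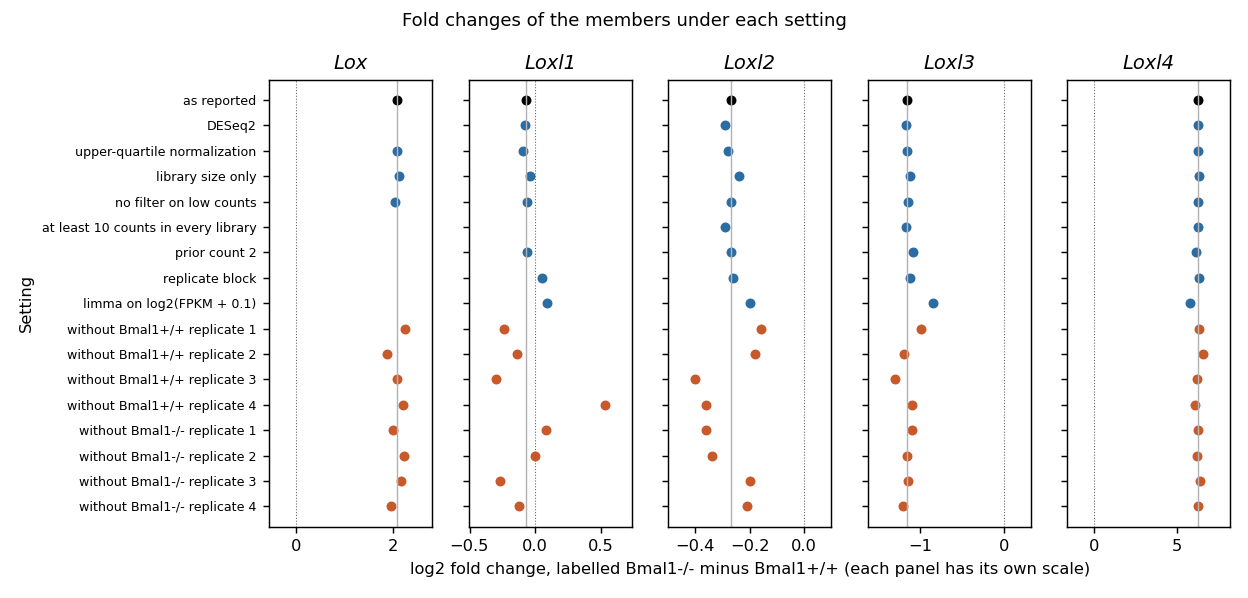
Log2 fold change of each member, with its own scale in each panel, as reported (black, grey line) and under each other setting, orange where 1 library was left out and blue otherwise. For Lox, which had no fitted fold change, the reported value of 2.09 is the log2 ratio of summed counts. Loxl4 stays between 5.81 and 6.63 and Loxl3 between -1.30 and -0.84, while Loxl1 crosses 0 (dotted line), between -0.30 and 0.53.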

How the data were processed

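RNA sequencing of 4 samples labelled Bmal1+/+ and 4 labelled Bmal1-/-, both given as MC38 tumor stromal vascular fraction, was used, grouped by the genotype label, with replicate numbers from the sample descriptions. The authors mapped the reads to GRCm38 and deposited counts per gene that are not normalized, beside FPKM. The study's methods name HISAT2 and StringTie, whereas the submitters' processing notes list CASAVA 1.8 and TopHat2 2.0.6, and the strand setting is not given in the sources used here. The deposited FPKM values of the members followed the counts divided by the library total and by a fixed length per gene. Of 55487 gene identifiers, 99.4% matched a symbol in the GENCODE annotation of GRCm38.

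Counts of 14353 genes that passed filterByExpr were compared by the quasi-likelihood test of edgeR 4.0.16 in R 4.3.3, after TMM normalization, with Benjamini-Hochberg adjusted p below 0.05 as the threshold. The common dispersion was 0.0506. FPKM levels were compared between members by an exact sign-flip permutation test on log2(FPKM + 0.1). Alternatives were DESeq2 1.42.0, limma 3.58.1 on FPKM, other normalizations and filters, a prior count of 2, the replicate number as a block and leaving out each library, and the order of members within each label or per length of annotated transcripts was added after seeing the data. The fits were tested on simulated data. Pairs of libraries differed by more than sampling noise. Python 3.11.15 with matplotlib 3.10.9 made the figures.

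The members and gene lists were chosen with earlier results of these data known. Named from each list are the 2 lowest and 2 highest fold changes among called genes averaging at least 1 CPM, and a set of defining genes whatever their test gave, beside the genes that check the labels and the 2 genes most like each member. Saa1 and the neighbours of Loxl4 were chosen after their values were seen. Library totals were between 14054825 and 18449143, and intervals and floors cover counting error only.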

Additional observations from a re-analysis of the deposited data

Results flagged for a closer look

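Among 92 groups of 4 libraries examined, 8 had 1 library far from the other 3 by Dixon's criterion, where chance gives about 5% of groups, and none of them belonged to a member of the family. In Bmal1+/+ library 2, the basement membrane collagens Col4a2 and Col4a1 were high, with 18.1 CPM against 13.5 to 14.2 and 29.3 CPM against 22.4 to 23.4 in the other libraries of that label. Colgalt2 was low in Bmal1+/+ library 3, with 0.739 CPM against 1.98 to 2.23. Cdh2 was high in Bmal1+/+ library 4, with 106 CPM against 87.0 to 89.1. In library 3 labelled Bmal1-/-, Fbln2 was low, with 0.712 CPM against 1.09 to 1.12, and so was Plod2, with 0.0712 CPM against 0.407 to 0.437. Ceruloplasmin (Cp) had 2883 CPM in library 4 labelled Bmal1-/- against 1308 to 1321 in the other 3. Aoc3 had 0.0624 CPM in library 1 labelled Bmal1-/- and 0 in the others, which is a difference of 1 count.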

How the results depend on the processing

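Of 193 values recomputed under other settings, 184 were taken as the same. For orders of members this meant staying on their side of the threshold, and for fold changes staying within the spread of the main value. Counts of genes were taken as the same within a fixed ratio of the main count. With no filter on low counts, for example, 25 pathway genes called lower were taken as the same. The number of pathway genes called lower, 35, was between 22 and 38 when 1 library was left out, with 22 both without Bmal1+/+ replicate 2 and without replicate 3 labelled Bmal1-/-. The others that changed were orders of members, in alternatives added after seeing the data. Per length of the transcript with the longest coding sequence, Loxl3 minus Loxl1 passed the threshold, at 0.61. Within 1 label, 4 libraries cannot pass it. In Bmal1+/+ libraries alone Loxl4 minus Loxl2 reversed to -1.48, and Loxl2 minus Loxl3 (0.38) and Loxl1 minus Lox (1.68) no longer passed. In libraries labelled Bmal1-/- alone Loxl3 minus Loxl1 reversed to -0.20, and Loxl2 minus Loxl3 (1.02) and Loxl1 minus Lox (1.23) no longer passed. The sign of Loxl1 also turned with the replicate block, to 0.05, with limma on FPKM, to 0.09, without Bmal1+/+ replicate 4, to 0.53, and without replicate 1 labelled Bmal1-/-, to 0.08, and it was 0.00 without replicate 2 of that label.

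With the replicate number as a block, Loxl4 had a log2 fold change of 6.37, Loxl3 of -1.12 and Loxl2 of -0.26, and 26 pathway genes were called lower and 12 higher. Same-numbered libraries correlated in their deviations from the group means across genes at -0.0642, 0.063, 0.0435 and 0.0362, so the numbers were not taken to pair the samples, and not every library correlated best with its own number. At 1 to 37 counts, Lox and Loxl1 were limited by depth.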
